A study of Saccharomyces cerevisiae with 64 samples.

Results

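Transcript changes between 12 h and 24 h of sporulation were followed in wild-type budding yeast, Saccharomyces cerevisiae S288c, in which IME1 and RIM4 were both overexpressed. The comparison took every gene of the deposited table that had a value at both times and subtracted the value at 12 h from that at 24 h. It covered 6522 of 6660 genes, and rested on 4 of the 64 samples of the series. The other groups used beside it were the same strain at 0 h and 48 h, and the kfc1 mutant with the same overexpression at 0, 12, 24 and 48 h. The labels give 2 replicates for each genotype, overexpression and time, and the sample names give the overexpression as PzevIME1 PzevRIM4. All of these samples, those of 0 h included, carry the condition Sporulation, and polyadenylated RNA was sequenced.

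Budding yeast diploids that starve for nitrogen on a non-fermented carbon source leave the mitotic cycle, replicate their DNA, recombine it, divide it in meiosis and pack the products into spores. The genes of this programme come on in waves. Ime1 is the transcription factor that starts the early wave of recombination genes, Ndt80 is the factor of the middle wave of division and spore-building genes, and the late wave finishes the spore wall. Rim4 is an RNA-binding protein that is needed for meiosis and holds back the translation of some middle transcripts. The number of cells in each stage and the amount of RNA per cell cannot be told apart in a bulk culture such as this.

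Each value below is a log2 ratio to wild type without overexpression at 0 h, and a difference is the log2 ratio at 24 h minus that at 12 h. The deposited table holds 1 value for the replicates together, so there is no replicate error, no test was possible, and depth is unknown. A gene was said to have risen or fallen when its difference was at least 1 or at most -1, which is 2-fold. The ratios set times beside each other for a gene and do not rank genes by amount of transcript.

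Between 12 h and 24 h, 639 genes rose, which was 9.8% of those compared, and 478 fell, which was 7.33%. The median difference over all genes was -0.05, and the SD over genes was 0.783. Changes beyond 8-fold were seen for 18 genes that rose and 2 that fell. The step was smaller than the one before it and larger than the one after: 35.7% of genes passed 2-fold in either direction between 0 h and 12 h (19.6% up, 16.1% down), 17.1% between 12 h and 24 h, and 7.12% between 24 h and 48 h (0.781% up, 6.34% down). These neighbouring steps share a column, so only their sizes are set side by side. In kfc1, 683 genes rose between 12 h and 24 h, or 10.5%, and 244 fell, or 3.74%.

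The lists with the largest shares of falling genes were the early recombination genes, the proteasome, the mitochondrial citric acid cycle, histones and nitrogen scavenging genes. Those with the largest shares of rising genes were desiccation and oxidative stress, the late spore wall, ribosome assembly and ribosomal proteins. Most prospore membrane and spore wall genes stayed within 2-fold of their 12 h values.

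**Figure D1:**
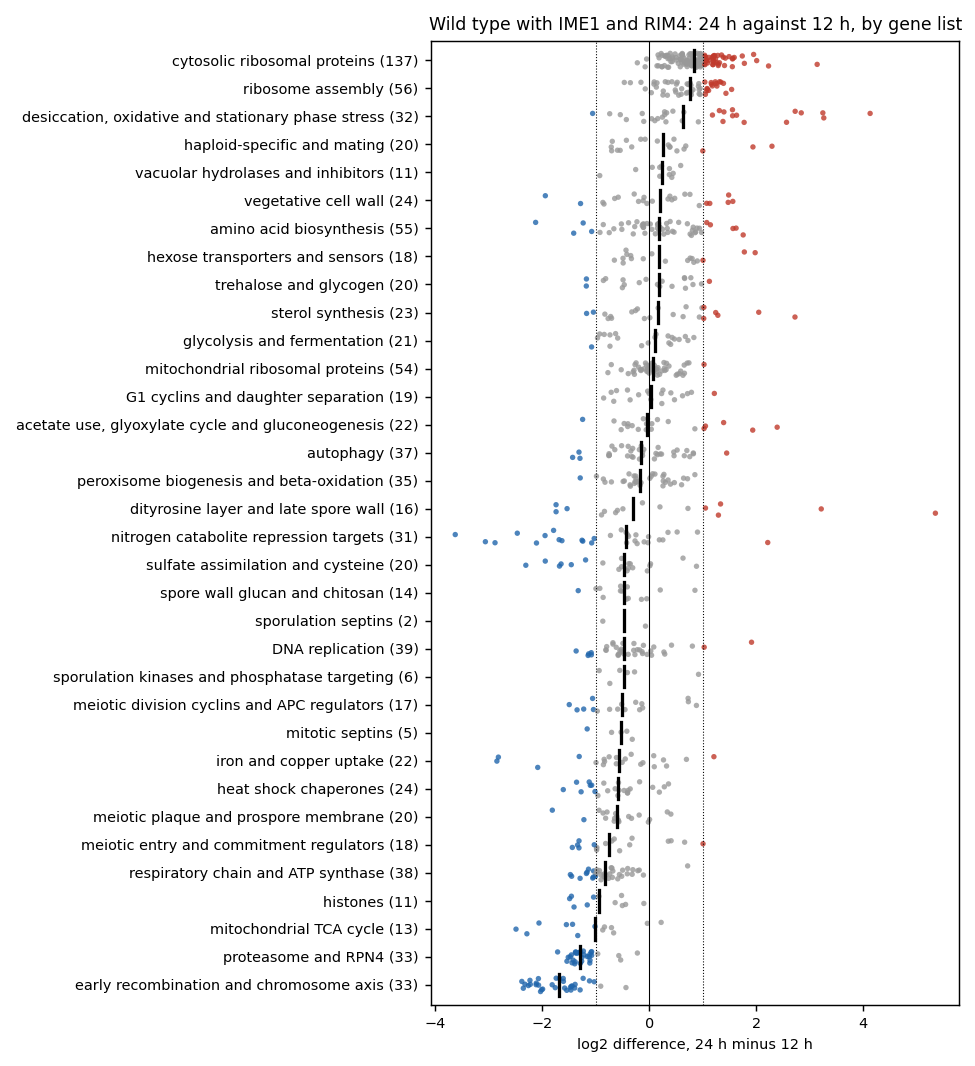
Differences between 24 h and 12 h for each gene of the 34 gene lists (x axis, log2 difference; each point is a gene, with a small vertical scatter, and the number of genes compared is beside the list's name). Black bars are list medians, red points rose and blue points fell by 2-fold or more, and dotted lines mark 2-fold; the early recombination list has its median at -1.68 and the ribosomal protein list at 0.84.

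Several regulators of meiotic entry were lower at 24 h than at 12 h. IME1 ran through 0.14, 4.02, 2.71 and 3.15 at 0, 12, 24 and 48 h, so that it fell by 1.31 over the step. RIM4, the other overexpressed gene, was at -0.46, 4.23, 3.42 and 3.64 at the same times, and its difference of -0.81 did not reach 2-fold. Both transcripts were therefore still well above their 0 h values at 24 h.

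IME2, the kinase that acts beside Ime1, fell by 1.44, from 6.78 to 5.34. Of the 18 entry and commitment regulators, 5 fell and 1 rose, or 33.3% past 2-fold beside 17.1% of all genes. The median difference was -0.76. The others that fell were SLZ1 (-1.34) and VIR1 (-1.03), which encode parts of the mRNA methylation machinery of meiosis, and PHO92 (-1.31), which encodes the reader of that mark. In kfc1 VIR1 stood at -7.32, -9.24, -9.41 and -9.38 at 0, 12, 24 and 48 h. Its very low value there was thus present from 0 h on. In wild type VIR1 stood at -0.07, 2.07, 1.04 and 1.74 at the same times. The kfc1 values are not read here as a change in the regulation of VIR1. Of the other genes of this machinery, MUM2 differed by -0.99, KAR4 by -0.98 and IME4 by -0.55. IME4 is overlapped by the antisense gene RME2, and whether the counting used strand is not given in the sources used here.

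NDT80, the middle-wave factor, was at 4.61 at 12 h, 3.63 at 24 h and 1.48 at 48 h, a difference of -0.98 that missed 2-fold. SUM1 encodes the repressor that occupies middle promoters before Ndt80 does. It was the regulator that rose, from -0.38 to 0.63, with a difference of 1.01 that no longer reached 2-fold with the columns centred on their median. RME1, a repressor of IME1 in haploid cells, was at -0.24 at 12 h, 0.11 at 24 h and 1.44 at 48 h.

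Early recombination and chromosome axis genes fell almost as a block. Of 33 members 31 fell, which is 93.9% beside the 7.33% of all genes, and 0 rose. Their median log2 ratio went from -0.12 at 0 h to 5.21 at 12 h and 3.43 at 24 h, and was 3.82 at 48 h. The drop therefore left most of these transcripts far above their starting values, and it did not continue to 48 h.

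MEI5 encodes a partner of the strand-exchange protein Dmc1, and had the largest fall of the list. It stood at -0.07, 10.08, 7.70 and 7.44 at 0, 12, 24 and 48 h. HED1, which encodes a regulator of meiotic strand exchange, went from 6.20 to 3.84, and MEK1, the kinase that steers breaks towards the homologous chromosome, from 6.47 to 4.14. SPO16, of the crossover-promoting complex, went from 7.11 to 4.85. The break-forming nuclease gene SPO11 (-1.81), the recombinase gene DMC1 (-1.99), the axis genes HOP1 (-2.03) and RED1 (-1.60), the meiotic cohesin gene REC8 (-2.07) and the synaptonemal complex gene ZIP1 (-1.39) also fell. Below 2-fold were MER1 (-0.91), a splicing factor gene, and REC107 (-0.43), a break-formation gene whose transcript Mer1 helps to splice.

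The early genes are known for a promoter element, URS1, at which Ume6 represses them and, with Ime1, turns them on. Its core was searched as GGCGGC on both strands in the 250 bases before the start codon of 5891 genes of the RefSeq annotation, assembly R64. It was found in 19 of the 33 early promoters, or 57.6%, and in 4.24% of all promoters. Of the promoters of genes that fell, 13.3% held it, and of those of genes that rose, 1.96%. The early genes that fell are counted in the 13.3%, so this share is not separate from that of the list. Within the early list the median difference was -1.99 for genes with the core and -1.57 for those without it. The sites of the 6 early genes with a match that fell most are shown 5′ to 3′ on the gene's strand, so that their shared letters can be compared; capitals mark the core, read on either strand.
MEI5: aagtattaGCCGCCcaaacttc
HED1: ttaagataGCCGCCcaggttaa
MEK1: taaatttcGGCGGCtatttcat
SPO16: gaaaagtgGGCGGCtaaaaccg
MEI4: tattgctgGGCGGCtaaatgtt
NDJ1: agaagttgGGCGGCtattttga
In MEI5 and HED1 the core lay on the opposite strand and in the other 4 on the gene's own strand. Read on its own strand, the core was followed by TA in 17 of the 19 early promoters that held it, and in 65 of the 250 promoters of all genes that held it. The distance from the start of the core to the start codon ran from 68 bases in HED1 to 134 in MEK1. The whole MEI5 window is at chrXVI:321631-321880, minus strand, and held 1 match at 126 bases before the start codon, with no match to the other motifs searched here.
MEI5 promoter: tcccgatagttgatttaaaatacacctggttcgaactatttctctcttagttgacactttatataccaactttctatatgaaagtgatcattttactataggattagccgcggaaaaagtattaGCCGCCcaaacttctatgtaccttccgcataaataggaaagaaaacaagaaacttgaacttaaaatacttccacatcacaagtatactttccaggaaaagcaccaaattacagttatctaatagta

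In kfc1 the early list behaved otherwise. Its median was 4.29 at 12 h and 3.99 at 24 h. There 0 of the list's genes fell by 2-fold and 1 rose, beside 3.74% and 10.5% of all genes in kfc1. MEI5 was at 8.61 and 9.12 there, and MEK1 at 5.90 and 5.32. The wild-type list was thus above the mutant's at 12 h and below it at 24 h, a difference that was not tested.

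**Figure D2:**
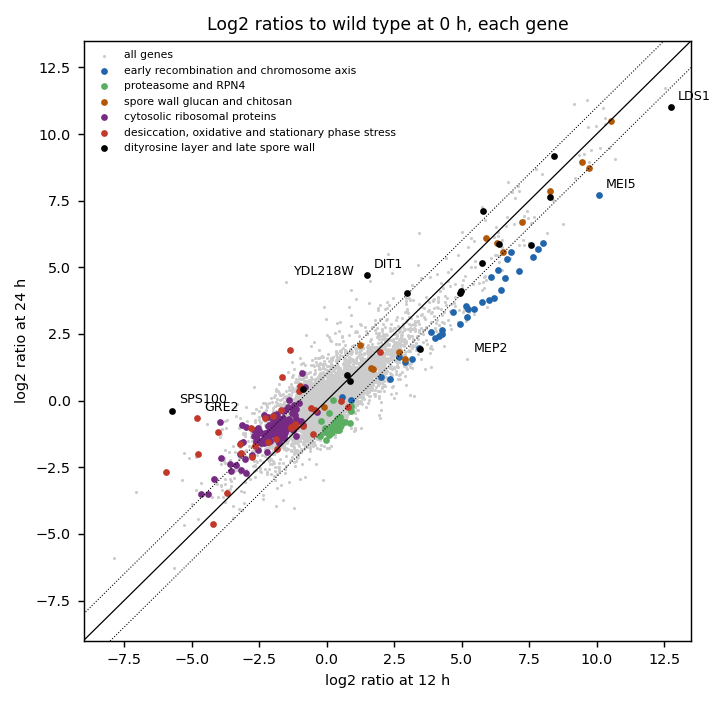
Log2 ratio to wild type without overexpression at 0 h, at 12 h (x axis) and at 24 h (y axis), in wild type with IME1 and RIM4; each point is a gene, coloured for 6 lists, the solid line marks equal values and the dotted lines 2-fold. The early recombination genes lie below the line at high ratios, and SPS100, GRE2 and YDL218W lie far above it.

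Histone genes package the DNA that is replicated before recombination. Of 11 histone genes 5 fell, or 45.5% beside the 7.33% of all genes, and 0 rose, with a median difference of -0.94. HTA2 went from 1.15 to -0.34, HHT2 from 1.03 to -0.43, HHF1 from 1.60 to 0.19, and HHT1 from 0.63 to -0.53. In kfc1 6 histone genes fell, beside 3.74% of all genes there, and the median difference of the histone genes was -1.03. Of 39 replication genes 5 fell and 2 rose, so that 17.9% passed 2-fold in either direction, near the 17.1% of all genes. RFA1 (-1.37) and RFA2 (-1.13), parts of the single-strand binding complex, and POL2 (-1.14), the leading-strand polymerase, fell, while RNR3, a damage-inducible subunit of ribonucleotide reductase, rose by 1.91.

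Genes of the meiotic divisions were high at 12 h, and some of them fell. Of 17 division genes 5 fell, or 29.4% beside the 7.33% of all genes, and 0 rose. Their median log2 ratio was 3.69 at 12 h, 2.72 at 24 h and 1.46 at 48 h. CDC5, the polo kinase that brings cells out of pachytene, went from 4.89 to 3.40 and then 1.46. SPO12, an activator of mitotic exit, went from 4.17 to 2.82, and PDS1, securin, from 4.57 to 3.35. The S-phase cyclin gene CLB5 fell by 1.06 and the cyclin gene CLB4 by 1.04. AMA1, the meiosis-specific activator of the anaphase-promoting complex, differed by 0.73, and the cyclin kinase inhibitor gene SIC1 by 0.88, neither of them 2-fold.

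The prospore membrane, which grows from the spindle pole body around each nucleus, is built by products of middle genes. Of the 20 genes of the meiotic plaque and this membrane 2 fell, or 10% beside the 7.33% of all genes, and 0 rose. SPO1, which resembles phospholipases, went from 3.87 to 2.06, and SPO21, a plaque component, from 5.65 to 4.42. The scaffold gene MPC54 differed by -0.86 and the leading-edge gene SSP1 by -0.94. The list's median log2 ratio was 3.25 at 12 h, 2.72 at 24 h and 1.57 at 48 h. In the last step 14 of its genes fell, beside 6.34% of all genes.

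Septins line that membrane. The sporulation septin genes SPR3 and SPR28 differed by -0.07 and -0.87. Of the 5 mitotic septin genes, CDC10 fell by 1.16, from 3.32 to 2.16, while CDC3 differed by -0.53. At 12 h CDC3 stood at 3.99, whereas CDC11 stood at 0.45 and CDC12 at -0.23. Among 6 sporulation kinase and phosphatase genes 0 passed 2-fold in either direction, beside 17.1% of all genes. The 6 included SMK1, the kinase of spore wall assembly, at 3.41 and 2.86, and its activator gene SSP2, at 7.75 and 8.67. CAK1, the kinase that activates other kinases of the cell cycle and of spore formation, differed by -0.94, and YSW1 by -0.74.

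The spore wall is laid down in layers, of which mannan and glucan are the inner ones, and chitosan and dityrosine the outer ones. Of 14 glucan and chitosan genes 1 fell, or 7.14% beside the 7.33% of all genes, and 0 rose. The median of this list was near 0 at the start, then 6.10, 5.75 and 2.98 at 12, 24 and 48 h. In the last step 10 of the list's genes fell, beside 6.34% of all genes. The gene that fell between 12 h and 24 h was MUM3, which resembles acyltransferases, from 2.91 to 1.58. The chitosan deacetylase genes CDA1, at 6.51 and 5.59, and CDA2, at 9.72 and 8.72, were high at both times and just short of 2-fold, and the wall glucanase gene CRR1 was at 2.68 and 1.82.

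The dityrosine layer and late wall genes split: 5 of 16 rose and 3 fell, or 50% past 2-fold beside 17.1% of all genes. SPS100, a late wall glycoprotein gene, rose most. From a 0 h value of -0.61 it had dropped to -5.73 by 12 h, then stood at -0.38 at 24 h and at -0.65 at 48 h. Its rise of 5.35 was thus a return from a deep low at 12 h to about its starting value. SUT169, a noncoding transcript, overlaps SPS100, and reads from it may be included.

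DIT1, the enzyme that makes the dityrosine precursor, behaved differently. It was at 0.10, 1.49, 4.71 and 1.96 at 0, 12, 24 and 48 h, so that 24 h was the highest of the times sampled. DIT2, which acts after it, rose by 1.05. SGA1, the sporulation glucoamylase that breaks down glycogen, went from 5.77 to 7.11, and OSW7 rose by 1.29. The lipid-droplet genes LDS1, from 12.75 to 11.01, LDS2, from 7.58 to 5.84, and LDO16, by 1.54, fell, while the dityrosine transporter gene DTR1 differed by -0.63.

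Middle genes carry the middle sporulation element, the site of Ndt80 and Sum1. Searched as GNCACAAA on both strands of the same windows, it was found in 11 of the 20 plaque and prospore membrane promoters (55%), 8 of the 14 glucan and chitosan promoters (57.1%) and 7 of the 16 late wall promoters (43.8%), beside 3.5% of all promoters. In the late wall list the median difference was -0.84 with the element and 0.72 without it. Of the 7 late wall genes with a match, 1 rose, SGA1, 2 fell, LDS1 and LDS2, and 4 did neither (RRT12, DTR1, GAT4 and TEP1). The sites of SGA1 and LDS2 are shown as examples of each direction, with capitals for the element and lower case for the flanks.
SGA1: tgtgtggaGTCACAAAttagggga
LDS2: cgcgtcgcGCCACAAAaacgaaac
The SPS100 window, chrVIII:379200-379449 on the minus strand, held no match to it. It held 2 matches to AGGGG, the stress response element, shown in capitals as CCCCT on the opposite strand, at 169 and 140 bases before the start codon. The nearer of these shares 1 base with a match to GAANNTTC, the core of the heat shock element.
SPS100 promoter: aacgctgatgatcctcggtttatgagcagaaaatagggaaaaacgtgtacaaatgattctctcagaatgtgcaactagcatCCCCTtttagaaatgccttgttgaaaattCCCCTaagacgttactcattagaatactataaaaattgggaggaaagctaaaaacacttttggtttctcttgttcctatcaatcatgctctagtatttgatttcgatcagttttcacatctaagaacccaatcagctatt

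**Figure D3:**
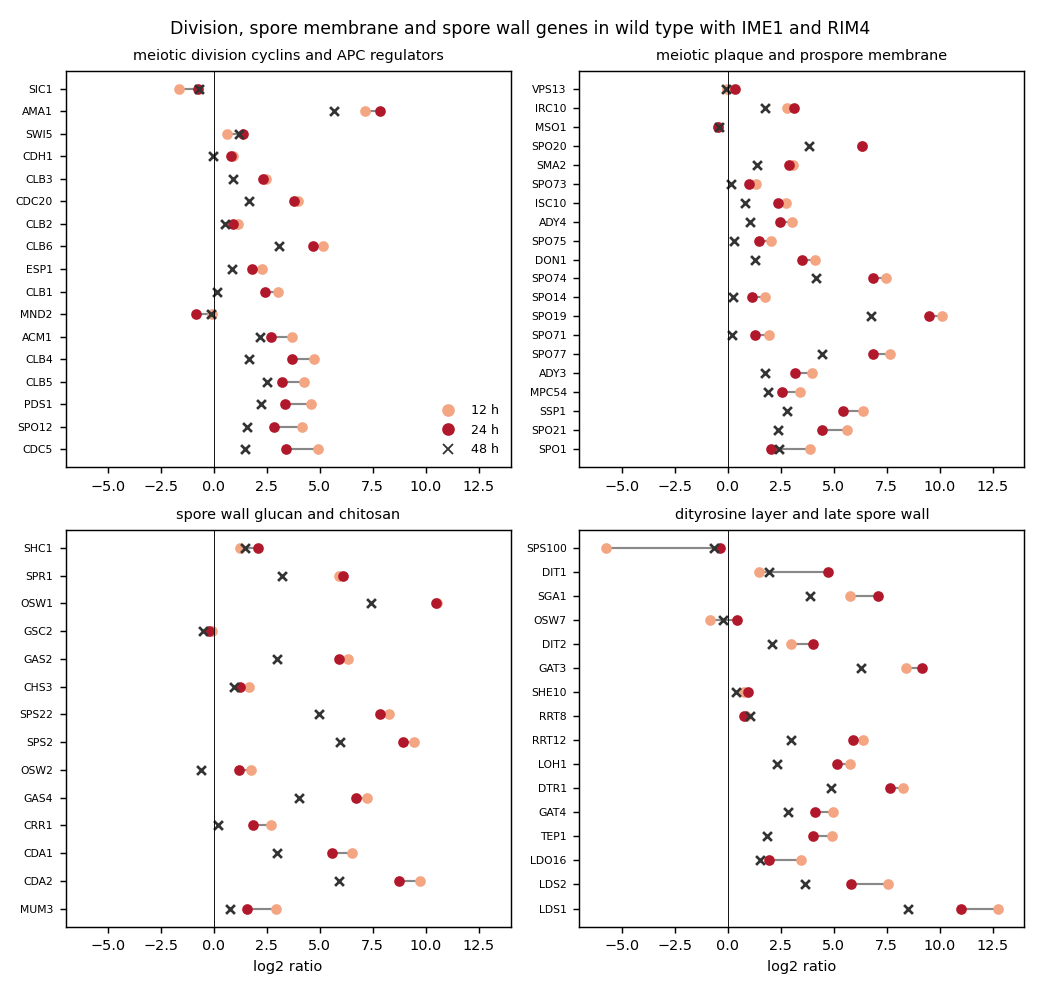
Log2 ratio to wild type without overexpression at 0 h (x axis) for each division, prospore membrane and spore wall gene in wild type with IME1 and RIM4; light points are 12 h, dark points 24 h, crosses 48 h, and lines join 12 h to 24 h. Most genes lie close together at 12 h and 24 h and lower at 48 h, and SPS100 and DIT1 have the longest lines to the right.

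The middle and late lists had a different course in kfc1. The glucan and chitosan median there was 1.66 at 12 h and 6.32 at 24 h, and 11 of its 14 genes rose over the step. The prospore membrane median was 1.27 and 3.47, with 16 of 20 genes rising and 1 falling. Over the same step 10.5% of all genes rose in kfc1 and 3.74% fell. NDT80 was at 1.26 and 4.07. At 24 h the medians of the genotypes were closer to each other than at 12 h in each of these lists. The labels give no time between 12 h and 24 h, and the difference between the genotypes was not tested.

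**Figure D4:**
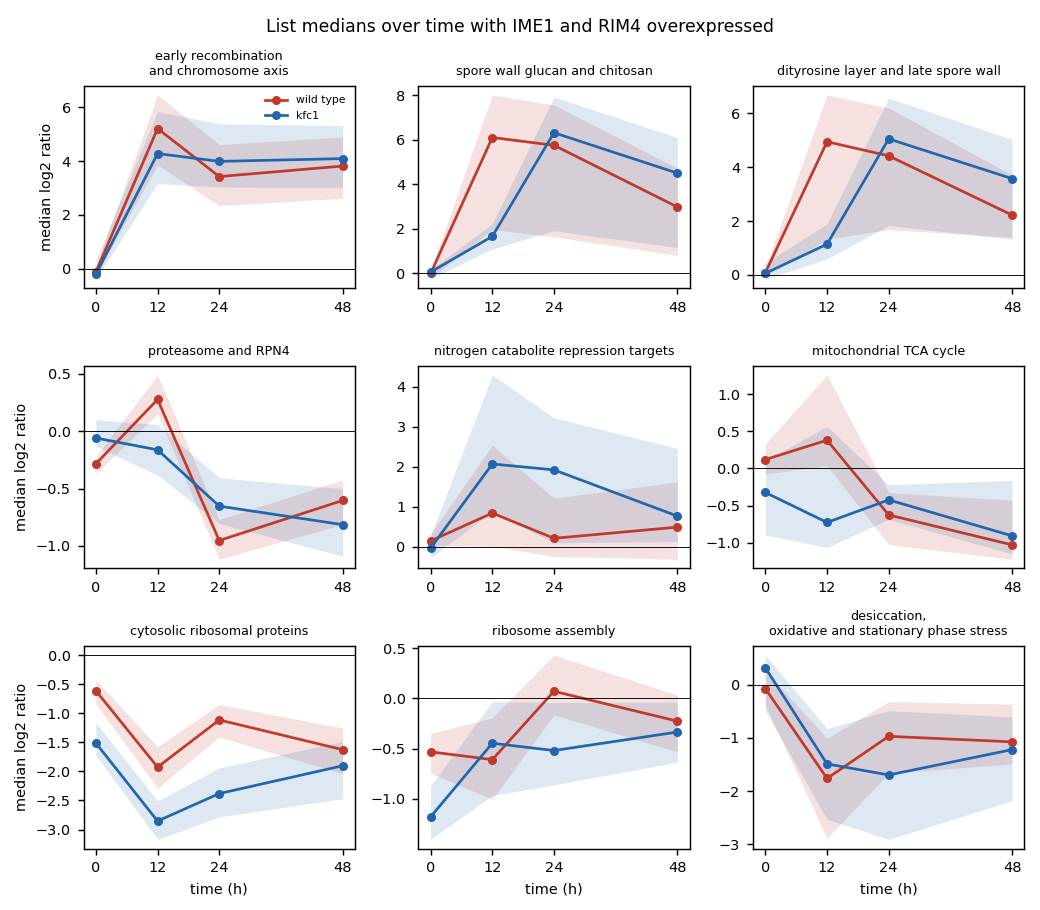
Median log2 ratio of 9 gene lists (y axis, scales differ between panels) at 0, 12, 24 and 48 h (x axis) in wild type (red) and kfc1 (blue) with IME1 and RIM4; bands run from the lower to the upper quartile of the genes and are not replicate errors. The wild-type glucan and chitosan list is at 6.10 at 12 h, when that of kfc1 is at 1.66.

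Proteasome genes fell together. The proteasome is the complex that degrades ubiquitin-tagged proteins, and Rpn4 is the factor that drives its genes. Of 33 genes 29 fell and 0 rose, which was 87.9% of the list beside 7.33% of all genes, and all 33 differences were below 0. The median log2 ratio went from -0.28 at 0 h to 0.28 at 12 h and -0.95 at 24 h, and was -0.60 at 48 h. Unlike that of the early meiotic genes, their median was therefore below its 0 h value at 24 h.

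PRE6, a core particle subunit, was at -0.23, 0.86, -0.85 and -0.46 at 0, 12, 24 and 48 h. The core subunit genes PRE2, from 0.44 to -1.09, and PRE9, from 0.40 to -1.12, and the regulatory particle ATPase gene RPT1, by 1.48 from 0.48, fell to a similar extent. RPN4 itself differed by -0.53, and RPN1 by -0.22. In kfc1 the median log2 ratio was -0.16 at 12 h and -0.65 at 24 h. There 1 gene of the list fell, beside 3.74% of all genes in kfc1.

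The proteasome promoters share the element called PACE, at which Rpn4 binds. Searched as GGTGGCAAA on both strands, it was found in 27 of the 33 windows (81.8%) and in 1.14% of all promoters. Of the promoters of genes that fell 7.23% held it, or 31, and of those of genes that rose 0. The proteasome genes that fell are counted among these 31, so this share is not separate from that of the list. The sites of the 6 members with a match that fell most are shown with PACE in capitals on either strand.
PRE6: aagattctTTTGCCACCggaaggga
PRE2: agcaaaagGGTGGCAAAacgaagaa
PRE9: accctgcaGGTGGCAAAaaatttat
RPT1: taccgaatTTTGCCACCcgaaaact
RPN9: tttcatccGGTGGCAAAagtaagaa
PRE10: tctaaatcGGTGGCAAAaataagaa
PRE6 and RPT1 carried it on the opposite strand. The median difference of the proteasome genes with the element was -1.28 and of those without it -1.24.

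Many genes of mitochondrial energy metabolism fell. Sporulating cells respire acetate, and the citric acid cycle feeds electrons to the respiratory chain. Of 13 citric acid cycle genes 7 fell, or 53.8% beside the 7.33% of all genes, and 0 rose, with a median difference of -1.01. IDH2 and IDH1, which encode the subunits of isocitrate dehydrogenase, went from 1.95 to -0.54 and from 1.26 to -1.03. FUM1, fumarase, fell by 2.06 and ACO1, aconitase, by 1.55. CIT1, citrate synthase, differed by -0.66.

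Of 38 respiratory chain and ATP synthase genes 10 fell, or 26.3% beside the 7.33% of all genes, and 0 rose. Below 0 were 37 of the 38 differences. The ATP synthase gene ATP2 went from -0.90 to -2.38, and COX9, of cytochrome oxidase, from -0.21 to -1.66, and the ATP synthase genes ATP20 and ATP5 fell by 1.29 and 1.17. The exception above 0 was COX5B (0.72), the form of cytochrome oxidase subunit used when oxygen is low. Mitochondrial ribosomal protein genes stood apart from these, with 1 of 54 rising, 0 falling and a median difference of 0.07. That was 1.85% past 2-fold in either direction, beside 17.1% of all genes. MRPL39 was the one that rose, by 1.03, and MRPL1 and MRPS8 differed by 0.74 and 0.71 and MRPL32 by -0.77. In kfc1 the citric acid cycle list had a median log2 ratio of -0.73 at 12 h, beside 0.38 in wild type, and of -0.42 at 24 h, beside -0.63.

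Enzymes of acetate use and gluconeogenesis gave no common direction, with 5 of 22 rising, 1 falling and a median difference of -0.04. In either direction 27.3% of them passed 2-fold, beside 17.1% of all genes. PCK1 and ICL1, which mark gluconeogenesis and the glyoxylate cycle, were higher at 24 h than at the times on either side: PCK1 was at -0.93 at 12 h, 1.00 at 24 h and -1.38 at 48 h, and ICL1 at -1.58, -0.19 and -2.61. ADH2, the alcohol dehydrogenase that consumes ethanol, rose from -5.36 to -2.97. MDH2, the cytosolic malate dehydrogenase, fell by 1.24. Of 21 glycolysis genes 1, TDH2 (-1.08), fell, or 4.76% past 2-fold in either direction beside 17.1% of all genes. The hexokinase gene HXK1 and the genes TPI1 and PGK1 differed by -0.97, -0.93 and -0.84. Of 18 hexose transporter genes with values 3 rose: HXT10, from 9.15 to 11.13, HXT2, from -1.85 to -0.07, and HXT13, by 1.01, the last of which fell short of 2-fold with the columns centred. HXT1 differed by 0.90, and the 16.7% of this list that rose stands beside 9.8% of all genes.

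Several nitrogen scavenging genes were high at 12 h and fell. The list was drawn up around nitrogen catabolite repression, whose targets are off when a good nitrogen source is present. It also holds the ammonium assimilation gene GDH1 and regulators such as DAL81 and DAL82, so not every member is such a target. Of 31 genes 13 fell and 1 rose, so that 45.2% passed 2-fold in either direction, beside 17.1% of all genes. MEP2, the high-affinity ammonium transporter, had the largest fall of all genes: it was at -0.23, 5.18, 1.55 and 3.07 at 0, 12, 24 and 48 h. GAP1, the general amino acid permease, was at 3.09, 0.21 and 2.16 from 12 h on. DAL3, of allantoin breakdown, was at 3.23, 0.17 and 1.49. These 3 transcripts were thus lower at 24 h than at either neighbouring time.

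GDH1, the glutamate dehydrogenase that assimilates ammonium, went from 3.64 to 1.17, and CAR1, arginase, from 1.96 to -0.67. UGA2, of the breakdown of gamma-aminobutyrate, rose by 2.22. The factors of this system bind GATA sites. Searched on both strands, GATAAG was found in 17 of 31 promoters of the list (54.8%) and in 12.5% of all promoters. It was in 13.2% of the promoters of genes that rose and 13.3% of those of genes that fell, and the median differences of list members with and without it were -0.42 and -0.48. MEP2 is shown as the gene with the largest fall, with its window at chrXIV:357203-357452, plus strand, and the match on the opposite strand, 233 bases before the start codon, in capitals.
MEP2 promoter: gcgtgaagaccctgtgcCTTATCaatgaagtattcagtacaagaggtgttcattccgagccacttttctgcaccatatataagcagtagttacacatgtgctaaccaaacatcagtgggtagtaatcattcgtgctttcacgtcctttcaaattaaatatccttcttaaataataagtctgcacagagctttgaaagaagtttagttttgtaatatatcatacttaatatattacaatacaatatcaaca

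The genes stood at other values in kfc1. MEP2 was at 7.05 and 5.35 there at 12 h and 24 h, and GAP1 at 5.35 and 3.68, both falling, whereas DAL3 rose there from 2.91 to 4.98. In that mutant 14 genes of the list fell and 3 rose, beside 3.74% and 10.5% of all genes there. Its median log2 ratio was 2.07 at 12 h and 1.92 at 24 h, above the wild type at both times.

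Some sulfate assimilation and iron uptake genes fell. Of 20 sulfate and cysteine genes 6 fell, or 30% beside the 7.33% of all genes, and 0 rose. Among those that fell were SUL1, the sulfate permease, from 4.34 to 2.03, and MET3, ATP sulfurylase, from 4.62 to 2.67. SAM2, of S-adenosylmethionine synthesis, went from 2.94 to 1.26, and MET10, of sulfite reductase, from 3.39 to 1.74. Of 22 iron and copper genes 4 fell and 1 rose, so that 22.7% passed 2-fold in either direction, beside 17.1% of all genes. SIT1, a siderophore transporter, went from -0.13 to -2.98. The wall mannoproteins FIT2, from -1.21 to -4.03, and FIT3, from -1.63 to -3.71, help to hold siderophores, and FET3 is the iron oxidase of uptake (-1.31). At 12 h these 4 iron genes stood near or below their 0 h values, and SUL1 and MET3 above theirs. LSO1, a small protein gene induced by iron loss, was also among the 12 largest falls, at -2.40.

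The binding sequence of Aft1, the iron regulator, TGCACCC on either strand, was in 8 of the 22 iron and copper promoters (36.4%) and 1.12% of all promoters. CACGTG, the site of Cbf1, which acts on the sulfur genes, was in 5 of 20 (25%) and 2.75%. The median differences of members with and without these sites were -0.60 and -0.56 for the iron list, and -0.35 and -0.52 for the sulfate list.

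Of 55 amino acid synthesis genes 5 rose (9.09%) and 4 fell (7.27%), near the 9.8% and 7.33% of all genes, with a median difference of 0.18. LEU4, of leucine synthesis, went from -0.75 to 0.87, and HIS4, of histidine synthesis, from -1.99 to -0.42. PRO3, of proline synthesis, fell by 2.12.

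Many genes of the translation machinery rose from a low at 12 h. Of 137 cytosolic ribosomal protein genes 41 rose, or 29.9% beside 9.8% of all genes, 0 fell, and 134 of the differences were above 0. Their median log2 ratio was -0.61, -1.93, -1.11 and -1.63 at 0, 12, 24 and 48 h. The rise thus did not bring the list's median to its 0 h value, and the median at 48 h lay between those at 12 h and 24 h.

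The largest rises were in RPL7B, from -3.94 to -0.80, RPS9A, from -3.14 to -0.91, RPS22B, from -2.99 to -0.98, and RPL22B, from -0.92 to 1.03. These are each a member of a duplicated gene couple, and reads may be split between copies. RPL7B and RPS22B are also overlapped by the small nucleolar RNA genes SNR59 and SNR44. At 24 h RPL7B, RPS9A and RPL22B stood above their 0 h values of -1.39, -0.96 and -0.48, and RPS22B below its 0 h value of -0.40. In kfc1 5 of the list rose and 1 fell, beside 10.5% and 3.74% of all genes there. The list's medians in kfc1 were -2.85 and -2.38 at 12 h and 24 h.

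Ribosome assembly genes, whose products make and modify ribosomal RNA, rose in 17 of 56 cases, or 30.4% beside 9.8% of all genes, and fell in 0. Their median log2 ratio was -0.61 at 12 h and 0.07 at 24 h. RRP9 went from -0.81 to 0.73, NOP58 from -0.65 to 0.79, RRP36 from 0.16 to 1.55, and UTP14 from -1.10 to 0.23. RRP9 and NOP58 encode proteins of the small nucleolar ribonucleoproteins. In kfc1 the same 4 genes differed by -0.67, 0.04, -0.21 and -0.08, and 1 gene of the list rose and 1 fell. Of all genes in kfc1 10.5% rose and 3.74% fell.

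Stress genes divided by kind. Of 32 genes of desiccation, oxidative and stationary phase stress 14 rose, or 43.8% beside 9.8% of all genes, and 1, MSN4, fell. Their median log2 ratio was -0.08 at 0 h, -1.76 at 12 h and -0.97 at 24 h. Of 24 chaperone genes of the heat shock response 0 rose and 7 fell, or 29.2% beside the 7.33% of all genes, with a median difference of -0.58.

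GRE2, a methylglyoxal reductase gene, was at -0.27, -4.79, -0.66 and -0.46 at 0, 12, 24 and 48 h, and GRE1, a hydrophilin gene of desiccation, at -0.71, -5.95, -2.68 and -1.80. ALD3, an aldehyde dehydrogenase gene, went from -4.02 to -1.18. CTT1, the cytosolic catalase, was at 0.56, -1.35, 1.89 and 1.64, so that it alone of these 4 ended above its 0 h value. All of them shared the low at 12 h. In kfc1 the differences of GRE2, GRE1, ALD3 and CTT1 were -0.63, -0.74, -0.08 and 0.28.

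Among the chaperones, HSP26, a small heat shock protein gene, went from -0.08 to -1.69, YDJ1, a co-chaperone gene, from 2.91 to 1.55, SIS1, another of that class, from 1.95 to 0.68, and SSA4, an inducible Hsp70 gene, from 3.19 to 2.07. HSP104, the disaggregase, differed by 0.28. The heat shock core GAANNTTC was in 10 of the 24 chaperone promoters (41.7%) and in 10% of all promoters.

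The stress response element AGGGG, at which Msn2 and Msn4 bind, was in 17 of the 32 stress promoters (53.1%), in 19% of all promoters, in 24.6% of those of genes that rose and in 16.1% of those of genes that fell. Within the stress list the median differences were 0.62 with it and 0.65 without it. The sites of the 3 members with a match that rose most are shown, with the element in capitals, read on the opposite strand in each.
CTT1: tatcgtatCCCCTactgctac
ALD3: tgatcagcCCCCTtcttaagc
DDR2: ttttctcaCCCCTtatgggac
The distances to the start codon were 133, 239 and 175 bases in this order. DDR2, a stress gene of unknown molecular role, rose by 2.57.

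Of 20 trehalose and glycogen genes 1 rose, TSL1 of trehalose synthesis (1.13), and 2 fell, PIG1 (-1.18) and PGM2 (-1.17). That was 15% of the list, near the 17.1% of all genes, and the glycogen synthase gene GSY1 differed by 0.98. Of 37 autophagy genes 1 rose and 3 fell (ATG45, ATG44 and ATG27, by 1.43, 1.31 and 1.29), or 10.8% beside 17.1% of all genes. The one that rose was ATG1, the kinase that starts autophagy, from 2.24 to 3.69, and in kfc1 it went from 1.46 to 3.10. Vacuolar hydrolase genes passed 2-fold in 0 of 11 cases, beside 17.1% of all genes. The largest differences there were -0.92 for PHO8, the vacuolar alkaline phosphatase, 0.59 for DAP2, 0.45 for AMS1 and 0.42 for APE3. Peroxisome genes fell in 1 of 35 cases, which was PEX21 (-1.29), or 2.86% past 2-fold in either direction beside 17.1% of all genes. FOX2 and PCS60 differed by -0.86 and -0.99, and PEX3, of peroxisome formation, by 0.85.

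Membrane and surface genes were mixed. Of 23 sterol synthesis genes 6 rose and 2 fell, so that 34.8% passed 2-fold in either direction, beside 17.1% of all genes. ERG3, a desaturase gene, went from -4.85 to -2.13, ERG24 from -2.15 to -0.10, and ERG5 and ERG28 rose by 1.28 and 1.24. HMG2, of the early part of the pathway, fell by 1.17. ERG3, ERG24 and ERG5 thus rose from low 12 h values. In kfc1 0 of the list rose and 2 fell, beside 10.5% and 3.74% of all genes there.

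Of 24 vegetative cell wall genes 5 rose and 2 fell, so that 29.2% passed 2-fold in either direction, beside 17.1% of all genes. TIR4, a wall mannoprotein gene of low oxygen, rose by 1.56 from 1.91, SED1 by 1.49 from -4.84 and CWP2 by 1.48 from -3.39. SCW4, a glucanase-like wall gene, fell by 1.94. CTS1, the chitinase of daughter separation, rose from -2.50 to -1.29 and was the 1 gene of 19 in the G1 and separation list that passed 2-fold. That was 5.26% of the list, beside 17.1% of all genes. In that list SWI4, a G1 transcription factor gene, differed by -0.85, AMN1 by 0.79 and SCW11 by 0.72.

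Of 20 haploid-specific and mating genes 3 rose and 0 fell: STE12, the mating transcription factor, from 0.10 to 2.40, GPA1, a subunit of the pheromone G protein, from -1.03 to 0.91, and MFA2, an a-factor gene, by 1.00, which did not reach 2-fold with the columns centred on their median. In either direction 15% of this list passed 2-fold, near the 17.1% of all genes. The median difference of this list was 0.26, and STE3, a pheromone receptor gene, differed by -0.71.

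Outside the lists, the largest rise was in YDL218W, a gene of uncharacterized function, at -1.59, -1.50, 4.44 and 3.82 at 0, 12, 24 and 48 h. In kfc1 it was at -1.09, 0.82 and 2.66 from 12 h on. Like CTT1, it was high at 24 h and stayed high at 48 h. YLR012C went from 2.28 to 5.50, YCL048W-A from 0.91 to 4.17, and YDL129W from -0.77 to 2.46. PLB2, a phospholipase gene, went from -2.69 to 0.50, and FMP45, a gene of the cell cortex, from -3.32 to -0.13. YGR027W-B, from -5.29 to -1.96, is a retrotransposon reading frame with many near copies, so reads cannot be assigned to it with certainty.

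**Figure D5:**
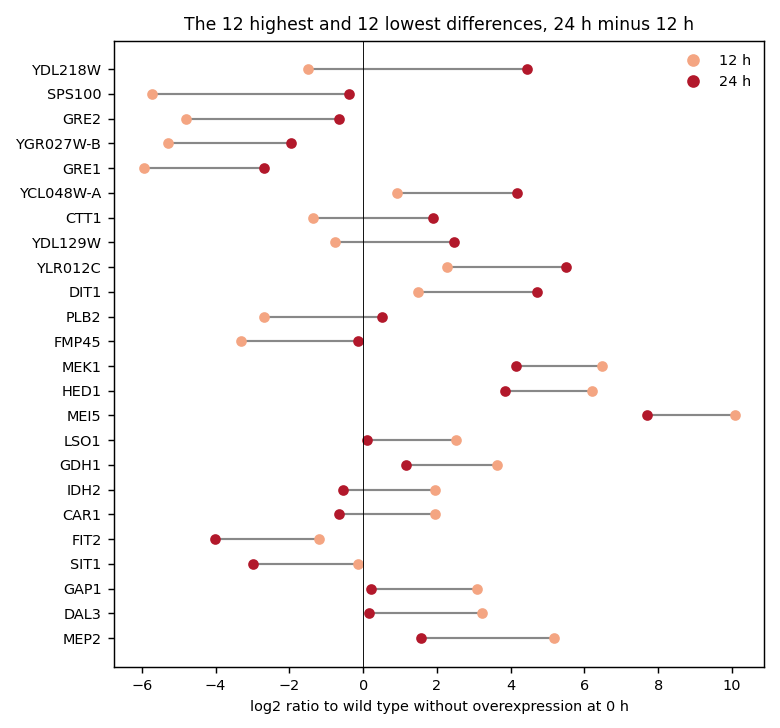
Log2 ratio to wild type without overexpression at 0 h (x axis) at 12 h (light) and 24 h (dark) for the 12 genes with the largest rise and the 12 with the largest fall, in order of their difference. SPS100, GRE2, GRE1 and YGR027W-B start from the lowest ratios at 12 h, and the genes that fell, other than SIT1 and FIT2, start above 0.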

How the data were processed

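Polyadenylated RNA was extracted with the Qiagen RNeasy kit and libraries were made and sequenced by Novogene, per the labels' protocols. The authors' deposited table gives, in log2 ratios, 1 column for each of 32 groups, with both replicates of a group combined. BWA, DESeq2 and the build sacCer3 are named in the submitters' processing notes, with no role. How reads were counted, whether strand was used and whether ratios were shrunken is not given in the sources used here, and the base of the logarithm was taken as 2. The zero column, wild type without overexpression at 0 h, was read as the reference. A linear model on replicates had been planned, but the table holds combined ratios, so a size rule of 2-fold replaced it. The 8 columns with IME1 and RIM4 were used.

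Genes named were the 12 highest and 12 lowest differences among RefSeq genes whose values no other gene shares exactly, the 4 members of each of 34 lists with the largest absolute difference, and 12 regulators; other list members are named as examples, chosen after their values were seen. Of the genes that the rule names, 1 is not reported here. The members, lists and motifs were chosen with earlier results of these data known. Symbols and sequences came from RefSeq, assembly R64, the assembly of sacCer3, which held 5986 of 6660 identifiers. The size rule was checked on simulated data without noise, so its outcome was fixed in advance. The check covers the counting alone and says nothing about false calls. Python 3.11.15, pandas 2.3.3, numpy 2.4.6 and matplotlib 3.10.9 were used.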

Additional observations from a re-analysis of the deposited data

Results flagged for a closer look

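For 10 of the named genes the difference between 24 h and 12 h passed 2-fold in opposite directions in the 2 genotypes with IME1 and RIM4 overexpressed; whether the genotypes differ was not tested. Among spore-building genes, LDS1 fell by 1.74 in wild type and rose by 5.37 in kfc1, LDS2 fell by 1.74 and rose by 3.85, SPO21 fell by 1.22 and rose by 2.52, and MUM3 fell by 1.33 and rose by 1.08. CDC10, the septin gene, fell by 1.16 and rose by 2.46. Of the division genes, CDC5 fell by 1.49 in wild type and rose by 3.03 in kfc1, PDS1 fell by 1.22 and rose by 1.85, and SPO12 fell by 1.35 and rose by 1.46. In all 8 of these genes kfc1 was below wild type at 12 h and above it at 24 h, as with NDT80.

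Outside the meiotic programme, DAL3 fell by 3.06 in wild type and rose by 2.06 in kfc1, and SSA4 fell by 1.12 and rose by 1.09.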

How the results depend on the processing

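At 3-fold in place of 2-fold, 196 genes rose and 110 fell. With each column centred on its median 629 rose and 492 fell, on its mean 615 and 502, with RefSeq genes only 562 and 430, and with genes sharing an exact value left out 630 and 477, all within 1.5 times the counts given. The 102 list medians were recomputed with both centrings and with genes sharing an exact value left out, and the 302 gene differences with both centrings only. They moved by at most 0.0178. Centring shifts every difference by the same amount, so for the centrings this move was fixed in advance and says nothing about reliability. Centring on the median took SUM1, HXT13 and MFA2 below 2-fold and CDA2 past it; centring on the mean did the same and also took MUM2 and PCS60 past it. No paired analysis was possible because the authors combined the replicates in 1 column per group, and for the same reason no replicate could be left out. Depth is unknown, so genes with few reads cannot be set apart, beyond the 50 that share an exact value with another gene. Not all of these 50 had values at both times: leaving them out took the genes compared from 6522 to 6486. Of those that share a value and were compared, 10 passed 2-fold.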

Other observations

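The PAU genes, a family of small wall mannoproteins of the seripauperin group that lie mostly near chromosome ends, were looked at after their values had been seen. Of 19 with values at both times, 13 rose and 0 fell, beside 9.8% and 7.33% of all genes. The median log2 ratio of the 19 was 0.82 at 12 h and 2.44 at 24 h. PAU24 went from 1.62 to 4.50 and PAU20 from 1.10 to 3.81, whereas PAU18 was at 2.59 and 1.66. The median difference was 1.32 in wild type and 1.48 in kfc1. The members are close copies, so reads may be split between them and the genes are not separate measurements.

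Genes near chromosome ends were also looked at after the values were seen, without a test. Of 219 RefSeq genes within 20 kb of an end, 51 rose (23.3%) and 10 fell (4.57%), with a median difference of 0.33. Of the 5673 farther away, 8.97% rose and 7.4% fell. Without the 14 PAU genes among them, 40 of 205 genes near the ends rose (19.5%).

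Of the 138 genes left out of the comparison, 15 had a value at 24 h alone, 5 at 12 h alone and 118 at neither time. URA3, a common marker gene, had a value of 1.13 at 24 h and none at the other times in wild type with IME1 and RIM4, beside 5.77, 9.19, 9.15 and 8.94 at 0, 12, 24 and 48 h in kfc1. LEU2 had no value in either genotype of this arm.

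The 627 compared identifiers that are not in the RefSeq table held 77 that rose and 48 that fell. Among all 6522 compared, 639 rose (9.8%) and 478 fell (7.33%).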
